A study of Mus musculus with 4 samples.

Results

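The genes described here belong to the immature retina and were followed in Fezf2 knockout (KO) and control mice: the proneural factors Atoh7, Neurog2 and Neurod4, the SOX factors Sox2, Sox4 and Sox11, and the secreted or lipid-binding proteins Fgf15, Sfrp2 and Fabp7. They were taken by symbol, as 9 of the 22558 symbols listed in each library, and every one stood at a single locus. The study sequenced total RNA of retina, with 1 library for each of 4 groups: Fezf2KO at postnatal day 14 (KO P14), wild-type littermates at postnatal day 14 (control P14), Fezf2KO at postnatal day 7 (KO P7) and wild-type littermates at postnatal day 7 (control P7). All mice were on the background that the labels give as C57/BL/6J. The labels describe neither the knockout allele nor how many retinas went into a library. The question was how loss of Fezf2, a zinc-finger transcription factor, alters gene expression in the developing retina.

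Proneural factors are basic helix-loop-helix (bHLH) proteins that pair with the widely expressed E proteins, bind E-box sequences and start neuron formation in progenitor cells, while Id and most Hes proteins hold them back. SOX factors carry an HMG box. Sox2 keeps progenitors in their state and stays on in Mueller glia and in starburst amacrine cells, whereas Sox4 and Sox11 act in newly formed neurons. In the mouse retina neurons and glia are formed in an ordered sequence that ends in the first weeks after birth, and genes of progenitors and of young neurons are then shut down.

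Promoter windows are shown for Fabp7, Sox4 and Sox11, the genes with the largest limma differences between the ages in log2(FPKM + 1), and for Neurod4, the gene with the highest level at P14. Each window is the 250 bases before the RefSeq start site in GRCm38.p6, written 5′ to 3′ in the direction of the gene, and capitals mark each E-box, CANNTG, a motif that reads the same on both strands. The deposited levels use the mm9 build, so these coordinates are not those of the deposited loci.
Fabp7, chr10:57784673-57784922, plus strand: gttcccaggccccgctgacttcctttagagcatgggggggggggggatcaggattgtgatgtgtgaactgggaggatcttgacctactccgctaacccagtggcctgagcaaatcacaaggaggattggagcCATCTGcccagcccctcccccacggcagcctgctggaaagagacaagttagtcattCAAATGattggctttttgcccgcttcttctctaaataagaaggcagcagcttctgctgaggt
Sox4, chr13:28953700-28953949, minus strand: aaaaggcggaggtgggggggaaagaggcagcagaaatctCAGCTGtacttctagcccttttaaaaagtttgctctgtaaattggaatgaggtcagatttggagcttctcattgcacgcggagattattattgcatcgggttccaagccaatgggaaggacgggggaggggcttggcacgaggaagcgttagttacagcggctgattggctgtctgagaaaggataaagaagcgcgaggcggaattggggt
Sox11, chr12:27342719-27342968, minus strand: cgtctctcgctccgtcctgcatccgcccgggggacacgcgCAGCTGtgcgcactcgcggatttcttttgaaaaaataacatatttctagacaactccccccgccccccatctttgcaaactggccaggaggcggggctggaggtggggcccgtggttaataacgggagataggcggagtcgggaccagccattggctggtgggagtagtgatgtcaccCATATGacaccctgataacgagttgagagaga
Neurod4, chr10:130280255-130280504, minus strand: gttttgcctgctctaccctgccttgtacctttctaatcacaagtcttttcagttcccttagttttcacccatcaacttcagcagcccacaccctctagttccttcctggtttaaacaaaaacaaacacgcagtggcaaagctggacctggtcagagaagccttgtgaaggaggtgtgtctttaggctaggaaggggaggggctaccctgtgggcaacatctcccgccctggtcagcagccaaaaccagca
RefSeq windows were matched for 8 of the 9 genes, with 2 windows for Neurod4, of which the one shown is the first. An E-box was present in 66.2% of 32851 RefSeq windows of this length. The Atoh7 window held 3, those of Fabp7 and Sox11 held 2 each and that of Sox4 held 1. The windows of Neurog2, Sox2 and Sfrp2 and both windows of Neurod4 held 0. Genes with and without these letters were found among those that were lower at P14.

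Levels are the authors' FPKM (fragments relative to transcript length and library size), each deposited with a lower and an upper bound. With 1 library per group no spread between mice could be measured, so a difference counts as beyond counting error only if the deposited bounds of both libraries stay apart. Differences between libraries are in units of log2(FPKM + 1), a scale on which changes of low genes come out too small. Genes at 1 FPKM or more in either library of a comparison counted as measured. The widths of the bounds implied about 12400000 fragments in the KO P14 library, 9300000 in the control P14 library, 11600000 in the KO P7 library and 11900000 in the control P7 library. Fezf2 itself was at 0.126 FPKM in the KO P14 library against 4.02 FPKM in the control P14 library, and at 0.592 FPKM in the KO P7 library against 8.32 FPKM in the control P7 library. The retina markers Crx, Pax6, Prkca, Rlbp1, Slc17a6 and Gnat1 were all detected in each library.

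Of the 9 genes, 7 reached 1 FPKM, and all 7 were lower at P14 than at P7, in the KO retina and in the control retina alike. Their median log2 difference was -0.96 in the KO and -1.10 in the control retina, where the median over all measured genes was -0.09 in either genotype. The bounds did not overlap for 7 of 7 genes in each genotype. Of all measured genes, 38.9% were lower in this way in the KO and 37.3% in the control retina. On the log2(FPKM + 1) scale, 3 genes were at least 2-fold lower in the KO and 4 in the control retina, against 7.90% and 6.96% of measured genes. This scale left out Neurog2 and Sfrp2 in the KO, whose P14 FPKM were 43.9% and 37.5% of the P7 levels. It also left out Sfrp2 in the control retina, at 43.0%. The comparisons of the ages in KO and in control retina share no library. Because the RNA came from bulk retina, fewer cells of a type and less RNA per cell cannot be told apart.

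With age and genotype fitted together across the libraries, limma called all 7 tested genes lower at P14, with adjusted p-values from 5.12e-06 to 0.00329. The same fit called 38.9% of 13057 genes lower and 28.9% higher at P14. It has 1 residual degree of freedom, which holds how far the age difference in KO and that in control disagree. The fit also leans on a spread shared between genes. Its standard errors and p-values therefore do not measure the spread between mice. Atoh7 and Fgf15, which stayed under 1 FPKM in all 4 libraries, were not tested.

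**Figure D1:**
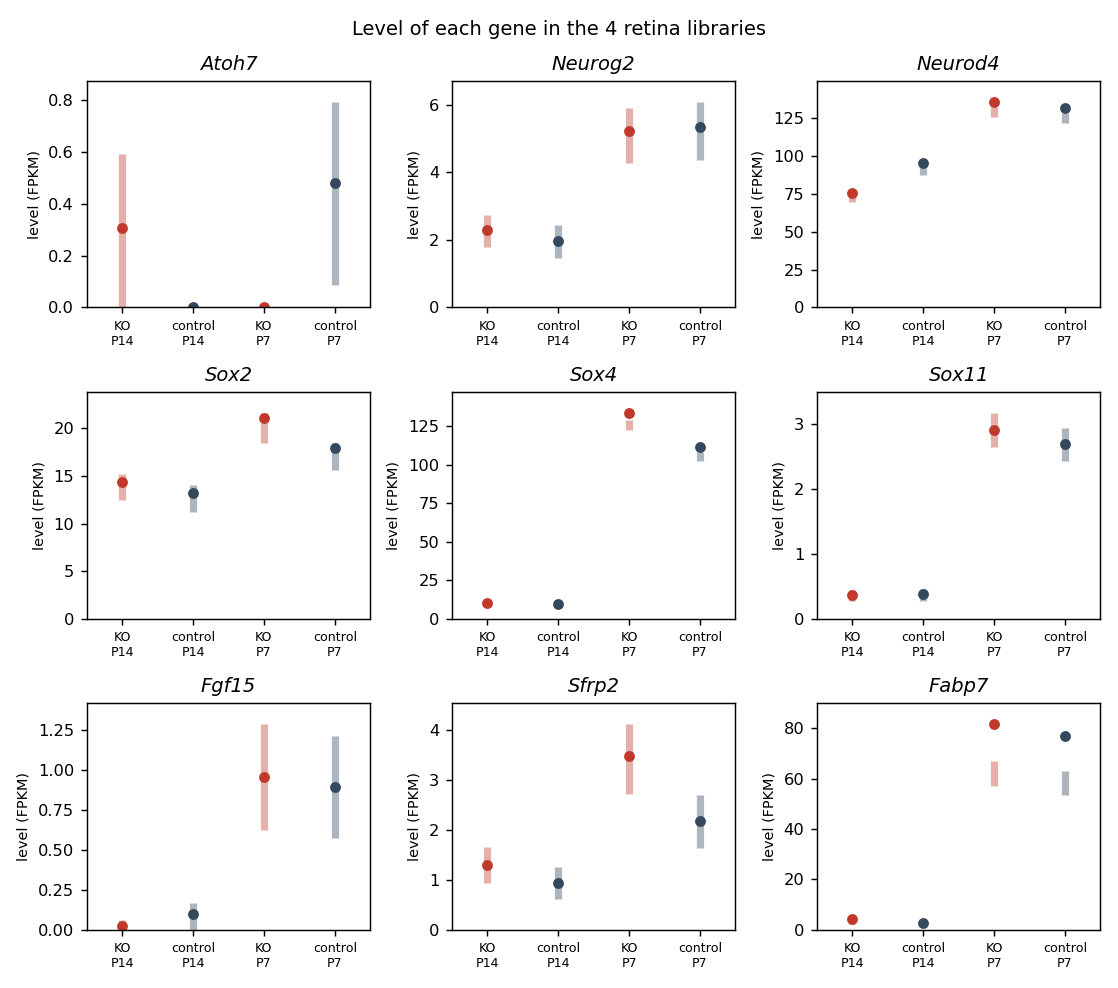
Level of each of the 9 genes in FPKM (vertical axis, starting at 0) in the KO P14, control P14, KO P7 and control P7 libraries. Points are deposited levels and bars run from the deposited lower to the upper bound, which lies below the point for Neurod4 in all 4 libraries and for Sox4 and Fabp7 at P7 (Fabp7 had 81.7 FPKM in the KO P7 library, with an upper bound of 66.9 FPKM); red is KO and blue-grey is control.

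Of Atoh7, Neurog2 and Neurod4, Neurod4 had the highest level in each library. Neurod4 works with related bHLH factors in the formation of bipolar and amacrine cells, and its locus in the files lies on chromosome 10 from base 129705208 to 129717296 (mm9). It stood at 75.6 FPKM in the KO P14 library and 95.1 FPKM in the control P14 library, against 135.7 FPKM in the KO P7 library and 131.6 FPKM in the control P7 library. Both P14 levels were below both P7 levels, but Neurod4 stayed above 96.0% of all symbols in the KO P14 library. The P14 level was 55.7% of the P7 level in the KO and 72.3% in the control retina (log2 differences -0.84 and -0.46). In limma it fell by 0.65 on the log2 scale at P14 (standard error 0.10, adjusted p = 0.00173), lower in both genotypes.

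Neurog2, which marks progenitors about to leave the cell cycle, lies on chromosome 3 from base 127336063 to 127338549. It was at 2.30 FPKM in the KO P14 and 1.96 FPKM in the control P14 library, against 5.23 FPKM in the KO P7 and 5.33 FPKM in the control P7 library. The 2 genotypes were close to each other at each age, and the ages did not overlap. The P14 level was 43.9% of the P7 level in the KO and 36.7% in the control retina, and limma gave a fall of 1.01 on the log2 scale (a log2 difference of -1.01, standard error 0.11, adjusted p = 0.000413).

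Atoh7, the bHLH factor needed to form retinal ganglion cells, was close to the limit of detection. The file locus spans 450 bases of chromosome 10, from 62562904 to 62563353. It was at 0.306 FPKM in the KO P14 library, listed at 0 in the control P14 and KO P7 libraries, and at 0.480 FPKM in the control P7 library. The level in the control P7 library implied about 6 fragments. No order between genotypes or ages was read from these values, since bounds of 0 to 0 were deposited for the levels listed at 0.

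The other proneural bHLH genes were also lower at P14 where they were called. Of 9 listed, 4 were tested by limma, and 3 fell, Neurod1 and Bhlhe22 among them, while 0 rose. Neurod1, a factor of photoreceptor and amacrine cells, was at 110 FPKM in the KO P14 and 109 FPKM in the control P14 library, against 218 and 211 FPKM in the KO P7 and control P7 libraries. Bhlhe22, of bipolar and amacrine cells, was at 13.9 FPKM in the KO P14 and 19.3 FPKM in the control P14 library, against 23.6 and 24.5 FPKM at P7 in KO and control. Neurod2 differed little, at 8.52 and 6.83 FPKM at P14 in KO and control, against 8.78 and 7.55 FPKM at P7.

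Among 11 partners and inhibitors of proneural factors, 6 fell and 2 rose at P14. The 3 E protein genes Tcf3, Tcf4 and Tcf12 were among those that fell. Hes6, a Hes protein that favours neuron formation, was at 27.1 FPKM in the KO P14 and 25.4 FPKM in the control P14 library, against 95.1 and 83.2 FPKM in the KO P7 and control P7 libraries. Id3 fell as well, whereas Id4 was among the 2 that rose, at 29.7 and 33.5 FPKM at P14 in KO and control against 25.2 and 25.8 FPKM at P7. Hes1, the Notch target kept by Mueller glia, was the other.

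**Figure D2:**
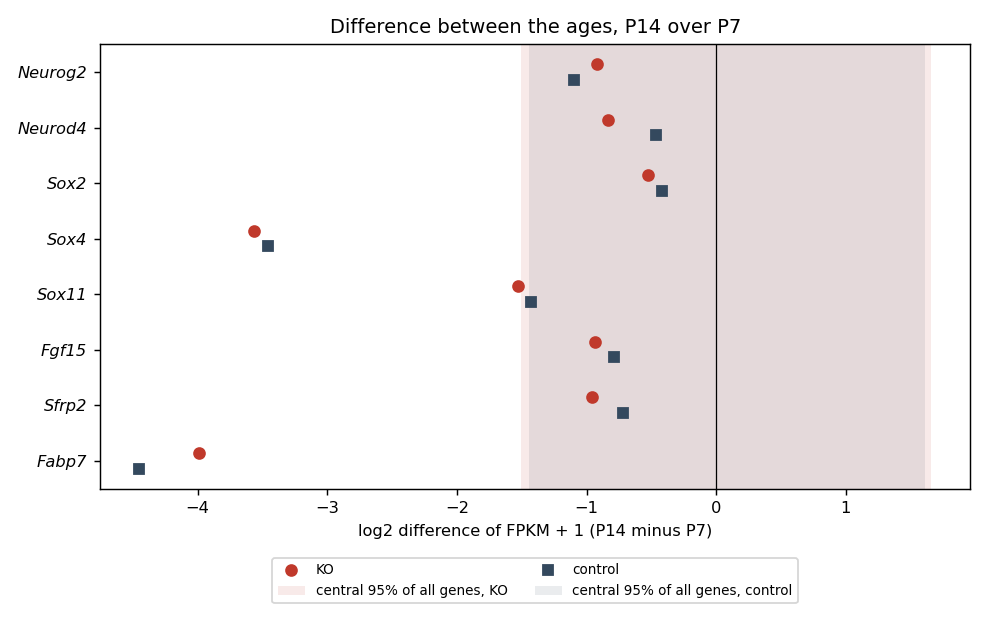
Difference between the ages in log2(FPKM + 1), P14 minus P7 (horizontal axis), for 8 of the 9 genes in KO (circles) and control retina (squares); Atoh7 is left out because it is listed at 0 in 2 libraries. Shaded bands hold the central 95% of all measured genes, and Fabp7 and Sox4 lie far to the left of them in both genotypes; Fgf15 was under 1 FPKM throughout.

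Among the SOX genes, Sox4 stood out. Sox4 lies on chromosome 13 from base 29042599 to 29045551 and acts in young neurons, ganglion cells among them. It was at 10.4 FPKM in the KO P14 and 9.25 FPKM in the control P14 library, against 133.7 FPKM in the KO P7 and 111.8 FPKM in the control P7 library. Sox4 thus went with the most abundant genes of the retina at P7, above 98.0% of symbols in the KO P7 library, and not at P14. The P14 level was 7.76% of the P7 level in the KO and 8.27% in the control retina. Only 0.296% of measured genes had a lower log2 difference in the KO retina and 0.467% in the control retina. Limma gave a log2 difference of -3.51 between the ages (standard error 0.08, adjusted p = 5.12e-06).

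Sox11, the close relative of Sox4 in the SoxC group, was much less abundant than Sox4 at both ages. It lies on chromosome 12 from base 28019133 to 28027583. Its level was 0.358 FPKM in the KO P14 and 0.372 FPKM in the control P14 library, against 2.92 FPKM in the KO P7 and 2.69 FPKM in the control P7 library. These are 12.3% and 13.8% of the P7 levels in KO and control. The limma log2 difference was -1.48 (standard error 0.11, adjusted p = 0.000102), and -2.64 when 0.1 FPKM was added in place of 1 FPKM.

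Sox2 was lower at P14 as well, but by the smallest log2 difference of the 7. It was at 14.3 FPKM in the KO P14 and 13.2 FPKM in the control P14 library, against 21.1 FPKM in the KO P7 and 17.9 FPKM in the control P7 library. The P14 level was 68.0% of the P7 level in the KO and 73.6% in the control retina, and limma gave a log2 difference of -0.47 (standard error 0.08, adjusted p = 0.00329). In a fit of age alone that left out the KO P7 library, chosen after the data were seen, the difference was -0.36 and limma's adjusted p was 0.0556. The Sox2 locus, chromosome 3 from base 34548927 to 34551382, lies inside that of the noncoding RNA Sox2ot. The library protocol in the labels names no strand marking, and how far reads of Sox2ot enter the Sox2 level was not tested. Sox2ot was at 3.94 and 4.11 FPKM at P14 in KO and control, against 6.91 and 5.53 FPKM at P7.

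Of 8 further SOX genes listed, 7 were tested by limma, and all 7 fell at P14. The third SoxC gene, Sox12, was at 8.29 and 7.38 FPKM at P14 in KO and control, against 37.6 and 33.6 FPKM at P7. Sox8 and Sox9, which mark Mueller glia, fell less: Sox9 was at 4.78 and 4.56 FPKM at P14 in KO and control, against 7.28 and 8.44 FPKM at P7.

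Sox2 is also known from Mueller glia and starburst amacrine cells, whose markers did not all move with it. Of 11 Mueller glia genes 9 rose and 2 fell at P14 in limma, and their summed level was 3070 FPKM in the KO P14 and 2950 FPKM in the control P14 library, against 1250 and 1180 FPKM at P7 in KO and control. Of 5 tested starburst amacrine genes 3 rose and 2 fell. Glul, the glutamine synthetase gene of Mueller glia, was at 1190 and 1124 FPKM at P14 in KO and control, against 169 and 188 FPKM at P7.

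Fabp7, the brain fatty acid-binding protein gene of radial glia and immature astroglia, showed the largest fall of the 7 tested genes. It lies on chromosome 10 from base 57504729 to 57508256. Its level was 4.20 FPKM in the KO P14 and 2.56 FPKM in the control P14 library, against 81.7 FPKM in the KO P7 and 76.8 FPKM in the control P7 library. The P7 levels were among the top few percent of symbols, and the P14 levels were near the middle of the list. The P14 level was 5.14% of the P7 level in the KO and 3.33% in the control retina, and limma gave a log2 difference of -4.22 (standard error 0.12, adjusted p = 1.03e-05). At P7 the deposited level lay above its own upper bound, which was 66.9 FPKM in KO and 62.9 FPKM in control, as it did for Sox4 at P7 and for Neurod4 in all 4 libraries, and for this reason only the bounds themselves were set against each other.

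The other fatty acid-binding protein genes did not share one direction. In limma Fabp5 and Fabp4 fell and Fabp3 rose, but the bounds of Fabp4 overlapped between the ages in both genotypes. Fabp5 was at 34.4 and 32.6 FPKM at P14 in KO and control, against 76.7 and 74.8 FPKM at P7, and Fabp3 was at 30.0 and 26.6 FPKM at P14 in KO and control, against 16.9 and 17.9 FPKM at P7. Astrocyte markers, set beside Fabp7 because astrocytes can express it, gave 2 genes that rose and 1 that fell of 4 tested.

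Sfrp2, which encodes a secreted inhibitor of WNT ligands, lies on chromosome 3 from base 83570243 to 83578236. It was at 1.31 FPKM in the KO P14 and 0.939 FPKM in the control P14 library, against 3.48 FPKM in the KO P7 and 2.18 FPKM in the control P7 library. It was lower at P14 in both genotypes, at 37.5% of the P7 level in the KO and 43.0% in the control retina. Limma gave a log2 difference of -0.84 (standard error 0.11, adjusted p = 0.00105).

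Fgf15, a growth factor gene of embryonic retinal progenitors, was at the edge of detection at P14. It lies on chromosome 7 from base 152082437 to 152086856. It was at 0.0236 FPKM in the KO P14 and 0.0957 FPKM in the control P14 library, against 0.956 FPKM in the KO P7 and 0.890 FPKM in the control P7 library. The lower bound was 0 at P14 in both genotypes. The upper bounds at P14, 0.0629 FPKM in KO and 0.170 FPKM in control, lay below the lower bounds at P7, 0.620 FPKM in KO and 0.571 FPKM in control. The P7 levels implied about 33 and 31 fragments in KO and control.

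Genes of FGF and WNT signalling, the pathways of Fgf15 and Sfrp2, did not move in one direction. Of 16 listed genes 12 were tested, and 5 rose and 2 fell at P14. The FGF-responsive factor gene Etv5 was at 17.4 and 14.4 FPKM at P14 in KO and control, against 9.14 and 9.68 FPKM at P7. Spry2, a feedback inhibitor of FGF signalling, was at 34.5 and 31.1 FPKM at P14 in KO and control, against 29.5 and 31.2 FPKM at P7. The WNT receptor gene Fzd5, which progenitors express, fell and was at 8.31 and 9.15 FPKM at P14 in KO and control, against 19.6 and 18.7 FPKM at P7.

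Other lists of immature cells were set beside these genes. Of 12 genes of young neurons 11 fell and 0 rose at P14, with a median log2 difference in limma of -1.49. Nnat was at 47.5 and 46.1 FPKM at P14 in KO and control, against 518 and 538 FPKM at P7. The tubulin gene Tubb2b was at 94.2 and 81.8 FPKM at P14 in KO and control, against 400 and 364 FPKM at P7. Stmn1, of microtubule turnover, was at 256 and 299 FPKM at P14 in KO and control, against 521 and 502 FPKM at P7. Of 10 progenitor transcription factor genes 9 were tested and 8 fell, Pax6 and Rax among them. Rax, of the retinal progenitor state, was at 86.5 and 76.5 FPKM at P14 in KO and control, against 146 and 149 FPKM at P7.

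Of 11 proliferation genes 7 were tested, and 5 fell and 1 rose. Mki67, Ccnb1, Cdk1 and Aurkb stayed under 1 FPKM in every library. Ccnd1, the cyclin of retinal progenitors, was at 9.11 and 8.52 FPKM at P14 in KO and control, against 17.9 and 19.8 FPKM at P7, and Mcm2, of the replicative helicase, was at 1.96 and 2.08 FPKM at P14 in KO and control, against 6.00 and 5.98 FPKM at P7. Pcna, which also serves DNA repair, was the gene that rose. The median limma difference between the ages over all 13057 genes was -0.09.

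**Figure D3:**
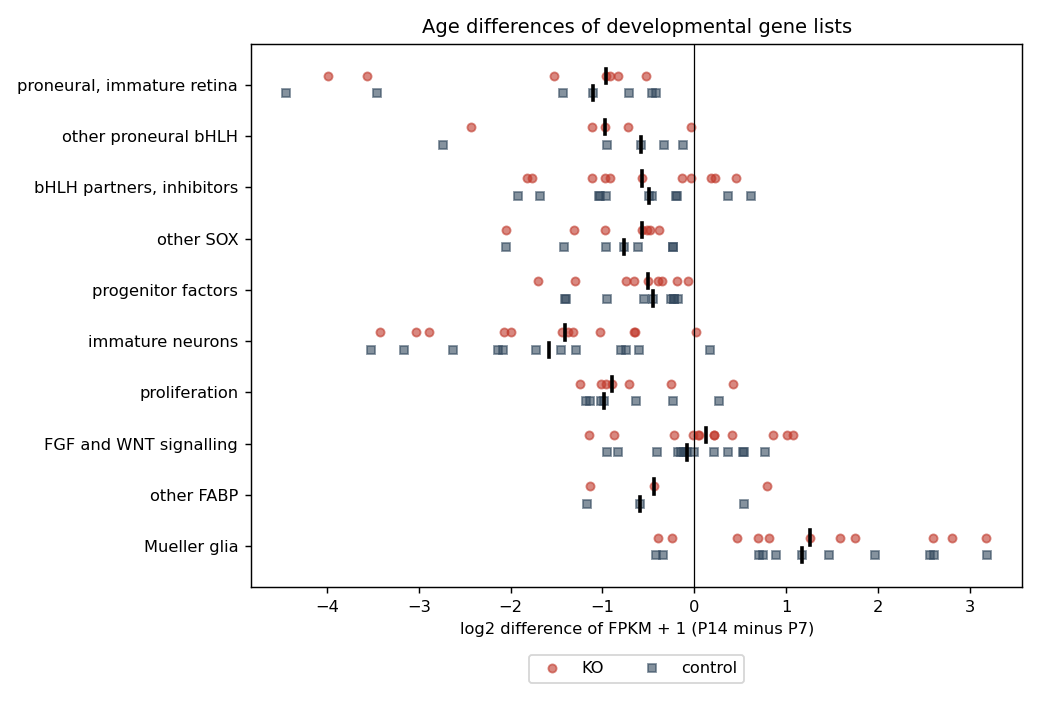
Difference between the ages in log2(FPKM + 1), P14 minus P7 (horizontal axis), for each gene at 1 FPKM or more in KO (circles) and control retina (squares), grouped by list (rows). Black strokes are list medians; most genes of the immature lists lie left of 0, whereas 9 of 11 Mueller glia genes lie right of it in each genotype.

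Log2 differences between the genotypes lay between -0.33 and 0.55 at P14 and between -0.02 and 0.49 at P7. At P14, 5 of the 6 measured genes were nominally higher and 1 lower in the KO library, and their median log2 difference was 0.15, where the median over all measured genes was 0.00. Only the bounds of Neurod4 did not overlap. At P7, 6 of 7 were nominally higher and 1 lower, with a median of 0.09 where that of all measured genes was 0.01, and Sox2, Sox4 and Sfrp2 were higher with bounds that did not overlap. Of all measured genes at P14, 7.36% were higher and 8.15% lower in this way, and at P7 7.25% were higher and 6.04% lower. At least 2-fold apart between the genotypes were 0 of these genes at either age, against 0.532% of measured genes at P14 and 0.553% at P7. Genotype comparisons at P14 and at P7 share no library, but each shares its libraries with the age comparisons.

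Neurod4 was lower in the KO retina at P14, at 75.6 FPKM in KO, against 95.1 FPKM in control (log2 difference -0.33). The bounds were 69.6 to 74.8 FPKM in the KO and 87.4 to 94.1 FPKM in the control library. At P7 Neurod4 was at 135.7 FPKM in KO, against 131.6 FPKM in control, with bounds that overlapped. The genotype difference at P14 minus that at P7 was -0.37, for which no test was possible. Bhlhe22, of bipolar and amacrine cells, was also lower beyond counting error in the KO library at P14, with a log2 difference of -0.45. Of the same list Neurod2 was higher beyond counting error (log2 difference 0.28), and for Neurod1 the log2 difference was 0.02.

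At P7 Sox4 was at 133.7 FPKM in KO, against 111.8 FPKM in control (log2 difference 0.26), with bounds of 122.4 to 129.2 FPKM in KO and 102.2 to 108.2 FPKM in control. Sox4 was the only one of the 3 whose bounds stayed apart when libraries were scaled to their upper quartile or to a TPM sum. At P14 Sox4 was at 10.4 FPKM in KO, against 9.25 FPKM in control, and the bounds overlapped.

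Sfrp2 was at 3.48 FPKM in KO, against 2.18 FPKM in control at P7 (log2 difference 0.49). The bounds, 2.72 to 4.12 FPKM in the KO and 1.64 to 2.69 FPKM in the control library, were just apart, and they overlapped on either other scale. Of measured genes, 99.1% had a lower log2 difference at P7. At P14 it was at 1.31 FPKM in KO, against 0.939 FPKM in control, with overlapping bounds. In the same family, named after its values were seen, Sfrp1 was at 4.66 FPKM in KO, against 3.13 FPKM in control at P7, and at 2.07 FPKM in KO, against 2.65 FPKM in control at P14. The related Frzb was at 5.85 FPKM in KO, against 6.08 FPKM in control at P7, and Sfrp5 at 0.220 FPKM in KO, against 0.327 FPKM in control.

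Sox2 was at 21.1 FPKM in KO, against 17.9 FPKM in control at P7 (log2 difference 0.23). The lower bound in the KO and the upper bound in the control library were both 18.5 FPKM after rounding, so the bounds barely failed to overlap, and they overlapped on either other scale. At P14 the levels were 14.3 FPKM in KO, against 13.2 FPKM in control, with overlapping bounds. Sox2ot, whose locus holds that of Sox2, was also higher in KO at P7, at 6.91 FPKM, against 5.53 FPKM in control. Its lower bound in KO, 6.23 FPKM, lay above its upper bound in control, 6.12 FPKM. At P14 Sox2ot was at 3.94 FPKM in KO, against 4.11 FPKM in control, with overlapping bounds. How far reads of Sox2ot enter the genotype difference of Sox2 was not tested.

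Fabp7 had the largest genotype difference of these genes at P14, at 4.20 FPKM in KO, against 2.56 FPKM in control (log2 difference 0.55), but its bounds overlapped, at 2.44 to 4.68 FPKM in the KO and 1.34 to 3.56 FPKM in the control library. These levels implied about 40 and 20 fragments in KO and control. Of 4 measured astrocyte genes 1, Gfap, was higher beyond counting error in the KO library at P14, at 20.6 FPKM against 9.32 FPKM in the control library. The bounds of the others overlapped, with log2 differences of 0.26 for S100b, -0.01 for Aldh1l1 and -0.12 for Pdgfra. The list summed to 40.2 FPKM in KO, against 27.3 FPKM in control, a gap that lay mostly in Gfap. Of 11 Mueller glia genes 4 were higher beyond counting error in the KO library at P14, Glul and Vim among them. Dkk3 and Abca8a were the 2 that were lower. Of all measured genes, 7.36% were higher and 8.15% lower in this way. Limma called 0 of the Mueller glia genes between the genotypes. The part of astrocytes and of Mueller glia in the Fabp7 and Gfap values was not tested. At P7 Fabp7 was at 81.7 FPKM in KO, against 76.8 FPKM in control. Neurog2 and Sox11 had overlapping bounds between the genotypes at both ages, as did Fgf15. The log2 differences of Neurog2 were 0.16 at P14 and -0.02 at P7, and that of Sox11 at P7 was 0.09.

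**Figure D4:**
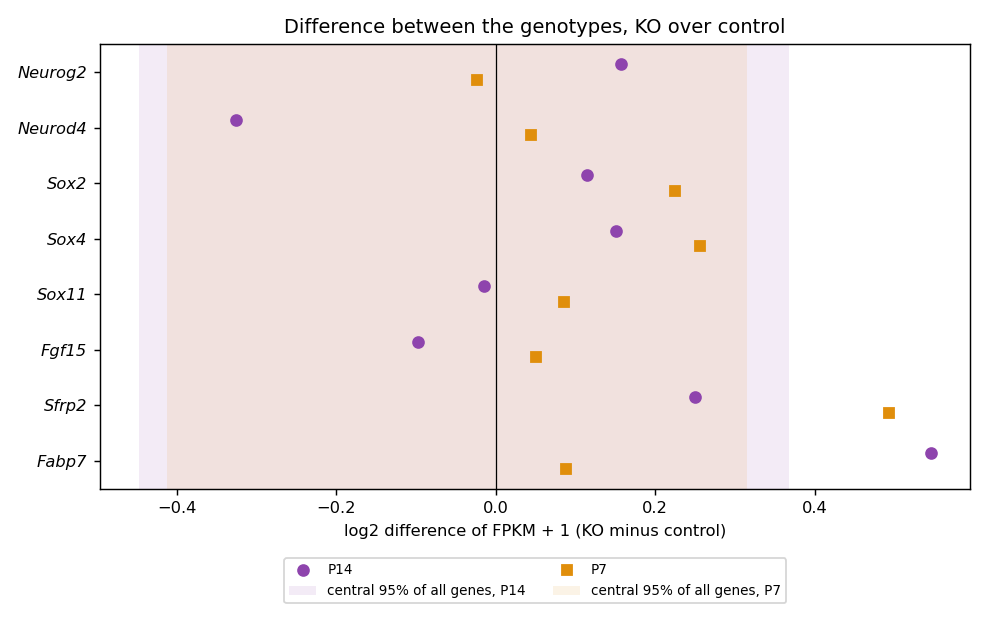
Difference between the genotypes in log2(FPKM + 1), KO minus control (horizontal axis), at P14 (circles) and P7 (squares) for 8 of the 9 genes, without Atoh7, which is listed at 0 in 2 libraries. Shaded bands hold the central 95% of all measured genes; Fabp7 at P14 (0.55) and Sfrp2 at P7 (0.49) lie to the right of them, while Neurod4 at P14 (-0.33) lies inside; Fgf15 at both ages and Sox11 at P14 were under 1 FPKM.

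In the limma fit 0 of the 7 tested genes was called between the genotypes, with adjusted p-values from 0.617 to 0.969. At an unadjusted p below 0.05 stood 3 of them, Sox4, Sfrp2 and Fabp7, against 7.31% of the 13057 genes tested, and no other tool was run. The same fit called 0.0536% of genes higher and 0.207% lower in the KO retina. For Sfrp2 the log2 difference over both ages was 0.37 (standard error 0.11, adjusted p = 0.617), for Fabp7 0.32 (standard error 0.12, adjusted p = 0.677) and for Sox4 0.20 (standard error 0.08, adjusted p = 0.677). For Neurod4 it was -0.14 (standard error 0.10, limma's adjusted p = 0.773) and for Sox2 0.17 (standard error 0.08, adjusted p = 0.692). On the TPM scale limma's unadjusted p was 0.0614 for Sox4 and 0.056 for Fabp7, and on the upper quartile scale 0.0531 and 0.0572. Without the variance trend it was 0.0629 for Sox4 and 0.0539 for Fabp7, and with no floor 0.0367 and 0.104. That of Sfrp2 stayed below 0.05 in each of these settings. With a pseudocount of 0.1 FPKM, or without small RNAs and short loci, all 3 genes stayed below 0.05. A p-value that misses the threshold with 1 residual degree of freedom does not show equal levels.

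Lists set beside the genotype differences moved as follows. Of all measured genes, 7.25% were higher and 6.04% lower beyond counting error in the KO library at P7, and 7.36% and 8.15% at P14. Of 12 genes of young neurons 7 were higher and 0 lower beyond counting error in the KO library at P7, Tubb2b among them, and of 10 measured at P14, 5 were higher and 1, Stmn1, was lower. Of 8 ganglion cell genes 3 were higher and 0 lower at P7, and 5 higher and 0 lower at P14, and the summed level was 938 FPKM in the KO P14 against 813 FPKM in the control P14 library and 510 FPKM in the KO P7 against 445 FPKM in the control P7 library. Limma called 0 of the genes of these 2 lists between the genotypes. Lens and vitreous genes summed to 6.89 FPKM in the KO P14 against 49.0 FPKM in the control P14 library, and to 29.6 FPKM in the KO P7 against 6.28 FPKM in the control P7 library. Of this list 3 of 5 measured genes were higher beyond counting error in the KO library at P7 and 2 of 4 lower at P14, while Crygs was listed at 0 in the KO P14 and control P7 libraries and Cryba1 in the KO P14 library. Pigment epithelium genes summed to 410 FPKM in the KO P14 against 456 FPKM in the control P14 library and to 292 FPKM in the KO P7 against 272 FPKM in the control P7 library. Of them, 6 of 8 measured genes were lower at P14 and 2 of 7 higher at P7 beyond counting error in the KO library. Without Rlbp1, which Mueller glia also express, the sums were 108 FPKM in the KO P14 against 155 FPKM in the control P14 library and 106 FPKM in the KO P7 against 92.6 FPKM in the control P7 library. Erythroid genes summed to 356 FPKM in the KO P14 against 1180 FPKM in the control P14 library and to 339 FPKM in the KO P7 against 291 FPKM in the control P7 library. Here 5 of 5 measured genes were lower at P14 and 1 of 5 higher at P7 beyond counting error in the KO library. The gene higher at P7 was Hba-a2, at 22.8 FPKM in KO against 0.0201 FPKM in control. At P14 Hba-a2 was at 0.0186 FPKM in KO against 40.1 FPKM in control. Both Hba-a2 and Hba-a1 were listed at 2 loci, and how reads were shared among such loci was not tested. The part of these tissues in the genotype differences of Sfrp2, Sox2, Sox4 and Neurod4 was not tested.

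Genes with the most similar course over the 4 libraries were sought by the distance between centred log2(FPKM + 1) values, among 13176 genes. For Sox4 the nearest was Arhgap31 (distance 0.04), at 5.17 and 4.55 FPKM at P14 in KO and control, against 73.8 and 59.4 FPKM at P7. Next came the imprinted noncoding RNA H19 (distance 0.12), at 0.566 and 0.499 FPKM at P14 against 18.5 and 16.5 FPKM at P7 in KO and control. For Fabp7 no gene was close, the nearest being H19 and Mex3a at distances of 0.72 and 0.73. The nearest to Neurod4 were March7 and Gng10 (0.04 each), and to Sfrp2 Ankrd43 (0.06) and Cdh5 (0.10), the cadherin gene of endothelium. Distances for the nearest genes of Neurog2, Sox2 and Sox11 were 0.01 (Rexo1), 0.03 (Frg1) and 0.04 (Dhx9). With 4 libraries many genes can share a course.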

How the data were processed

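RNA of retina was sequenced as 36-base single ends, per the labels' protocols. The submitters' processing notes name CASAVA 1.8.2, TopHat2 2.0.8b, Cufflinks 2.1.1 and the mm9 build behind the FPKM values and bounds deposited by the authors. For annotation and options the sources used here name nothing. No counts are in the files, and implied fragments assume bounds of 2 standard deviations on each side, for counting error only, since amplified reads are not independent molecules. Rows of 1 symbol were summed, 16 symbols with a failed level were left out, and a level listed at 0 was not called. Log2(FPKM + 1) was fitted with limma 3.58.1 (R 4.3.3) on genotype and age. The fit took the 13057 genes that reached 1 FPKM in 2 or more libraries, used a mean-variance trend, and adjusted p-values by Benjamini-Hochberg over these genes. Tested on 20 simulated data sets of these genes for the age term, the fit recovered a median of 31.5 of 50 genes changed 1.5-fold and 49 of 50 changed 2-fold, with a median of 7.13% false calls. Each set changed 200 genes, where the fit to the data called 8858, and drew its spread from this same fit. Folds were added on the log2(FPKM + 1) scale. These settings differ from the data, so the recovered and false shares need not hold for them. Besides the 9 genes, the 3 most abundant genes of each list were to be named. Alternatives were the pseudocount, the scale, the floor, small RNAs and loci under 300 bases, the variance trend, the genotype term and leaving out a library. The genes and lists were chosen with earlier results of these data known. Locus starts in the files were read as counted from 0 and are given counted from 1. Some genes of the lists are not reported here by name.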

Additional observations from a re-analysis of the deposited data

How the results depend on the processing

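The age difference of the 7 tested genes kept its direction and its limma call under the 7 alternatives that kept all 4 libraries, with log2 differences from -4.55 to -4.13 for Fabp7, from -3.67 to -3.41 for Sox4, from -0.57 to -0.37 for Sox2 and from -2.64 to -1.42 for Sox11, whose values moved with the pseudocount and the TPM scale, and adjusted p-values up to 0.026. With no floor Fgf15 was called lower as well (adjusted p = 0.0073) and Atoh7 was not (0.819). The number of genes at least 2-fold lower at P14 in the KO retina was 3, but 5 with a pseudocount of 0.1 FPKM and 6 on the TPM scale. Neurog2 and Sfrp2 were added by both, at 43.9% and 37.5% of the P7 level in FPKM, and Fgf15 by the TPM scale. An added 1 FPKM makes such differences of low genes smaller. At P7 the number with bounds apart between the genotypes was 3, but 1, Sox4, on the TPM scale and 1 on the upper quartile scale. Levels were multiplied by 2.537 in KO P7 and 2.58 in control P7 for TPM, and by 0.9558 and 0.9718 for the upper quartile. Both scales thus lowered KO against control, and the bounds of Sox2 and Sfrp2 had been only just apart. Limma called 0 of the genes between the genotypes under any of 6 alternatives, with adjusted p-values from 0.342 to 0.983. No paired analysis was possible because each group has 1 library. With genotype and age both fitted, leaving out a library leaves no residual degree of freedom, so libraries were left out in turn from a fit of age alone, chosen after the data were seen. It called 6 to 7 of the 7 genes lower, and the call lost was Sox2 without the KO P7 library (adjusted p = 0.0556; over the 4 fits 0.0129 to 0.0556). Bounds cover counting error, not differences between mice.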

Other observations

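Among genes of FGF and WNT signalling, 3 of 12 measured genes were higher and 1 was lower beyond counting error in the KO library at P14, named here after their values were seen. Spry4 was at 4.44 FPKM in KO, against 2.37 FPKM in control, Spry1 at 5.80 FPKM in KO, against 4.14 FPKM in control and Etv5 at 17.4 FPKM in KO, against 14.4 FPKM in control, while Etv1 was at 3.06 FPKM in KO, against 3.995 FPKM in control. Of all measured genes 7.36% were higher and 8.15% lower in this way at P14. At P7 the levels in the KO and control libraries were 1.69 and 1.90 FPKM for Spry4, 5.57 and 5.81 FPKM for Spry1, 9.14 and 9.68 FPKM for Etv5 and 2.48 and 2.43 FPKM for Etv1.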
